A study of Mus musculus with 12 samples.

Results

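Libraries labelled Id1KO were compared with libraries labelled WT, both with Tet2 intact, across all genes of the deposited table. The comparison used 6 of the 12 libraries of the series, 3 per label, and 14346 of 55450 genes passed the filter on low counts. The cells of all groups were donor-derived bone marrow cells without lineage (Lin) markers and with the receptor Kit, sorted from mice that had received competitive marrow transplants. WT donors carried no deletion by their label, Id1KO donors lacked Id1 by theirs, and the other 6 libraries were labelled Tet2 KO and Tet2 KO with Id1KO (dKO). The labels give no treatment, no time after transplantation and neither the age, the sex nor the number of donors or recipients. Titles give the 3 libraries of a genotype a single sample number with a suffix that is not explained, so they may be repeats of 1 cell sample. The p-values below measure the spread between these libraries, which may be technical.

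Id1 encodes a helix-loop-helix protein that has no DNA-binding region of its own. It pairs with E proteins, the products of genes such as Tcf3 and Tcf12, and keeps them off the E-box sequences through which they switch on lineage genes. In marrow Id1 is known as a gene induced by cytokines and bone morphogenetic proteins that restrains differentiation of stem and progenitor cells.

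Depth ran from 17994745 to 19959183 estimated counts per compared library. Within a label, the median squared difference between libraries was 1.27 to 1.79 times that of counting noise, and between the labels 2.89 to 3.78 times. The sorted type was checked on markers: Kit stood at 338 ± 2.3 CPM (counts per 1000000, with library totals scaled by TMM; SD, n = 3) under WT and at 315 ± 1.2 under Id1KO. T-cell Cd3e, B-cell Ms4a1 and granulocyte Ly6g were at 0.104 CPM or less in every compared library. Itgam, of myeloid cells, stood at 32.3 ± 0.54 CPM under WT and at 30.9 ± 0.77 under Id1KO.

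Id1 was not lower in the libraries labelled Id1KO. Its level was 1.76, 1.24 and 1.40 CPM in WT replicates 1, 2 and 3, the order used below, and 3.84, 3.69 and 4.35 CPM in the libraries labelled Id1KO. All 3 Id1KO libraries lay above all 3 WT libraries, with a log2 fold change of 1.43 ± 0.17 (SE) and an edgeR adjusted p of 8.11e-06. Id1 stood at 4.35, 3.63 and 3.61 CPM under Tet2KO and at 4.18, 3.35 and 4.25 under dKO, where the groups overlapped. Id1 (ENSMUSG00000042745.9) lies on chromosome 2 from 152736251 to 152737410 (GRCm38, GENCODE M21, 1-based, as all positions below) and has 1 merged exon of 1160 bp, so its count would not reveal a deletion within the exon. Tet2 stood at 98.6, 97.6 and 102 CPM under WT and at 90.3, 92.5 and 93.3 under Id1KO (log2 fold change -0.11 ± 0.031, adjusted p 0.0214). That call was lost with DESeq2, without WT replicate 3 (adjusted p 0.123) and without Id1KO replicate 1. The names WT and Id1KO below are labels of libraries.

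Transcripts of both sexes were present under both labels, in different proportions. Xist, the RNA of the silenced X chromosome, stood at 272, 252 and 262 CPM under WT and at 69.0, 65.1 and 60.5 under Id1KO (log2 fold change -2.02 ± 0.041, adjusted p 3.67e-18). The Y-linked helicase gene Ddx3y stood at 46.1, 50.3 and 50.4 CPM under WT and at 91.3, 90.3 and 98.5 under Id1KO. Neither gene's libraries overlapped, and the Y genes Uty, Eif2s3y and Kdm5d rose by 0.57, 0.57 and 0.45 on the log2 scale. The part of this sex difference in the other results was not tested.

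Differences between the labels were many and mostly small. By edgeR's quasi-likelihood test 2156 genes were called at an adjusted p under 0.05, or 15.0% of those tested. Of these, 1042 (7.26%) were higher and 1114 (7.77%) lower in Id1KO. These shares are the background for the counts of list members in Id1KO against WT given below. Their median absolute log2 fold change was 0.21, a 1.16-fold difference, and 1 in 10 exceeded 0.62. Only 89 genes (0.620%) were called and differed more than 2-fold, 43 of them gene models without an established name. The 3 and 3 libraries did not overlap for 4685 genes (32.7%), among them 2118 of the 2156 called. Lack of overlap was also required of the highest and lowest genes named. Where it is mentioned below it describes the values and adds no support to a call. With DESeq2 the calls were 1418 (9.88%), with a test against a 1.2-fold difference 140 (0.976%). With the libraries of each genotype summed to 1 sample and the effect of the Id1 label taken across both Tet2 backgrounds, 7 genes were called, all lower, and 1428 had an unadjusted p under 0.05.

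Among called genes with an established name, no overlap of libraries and at least 5 CPM under 1 label, Eps8l1 (chromosome 7, 4460674 to 4480487) rose most. It encodes an actin-regulating relative of the Eps8 signalling adaptor. It stood at 1.56, 1.34 and 1.40 CPM under WT and at 9.17, 7.81 and 7.76 under Id1KO, 5.72-fold higher (log2 fold change 2.52 ± 0.13, adjusted p 5.14e-11). Next was Socs3 (chromosome 11, 117966079 to 117970047), which encodes a feedback inhibitor of cytokine receptors that signal through JAK and STAT proteins. Socs3 stood at 1.56, 1.91 and 2.22 CPM under WT and at 6.15, 5.72 and 5.01 under Id1KO (1.57 ± 0.14, adjusted p 2.05e-07). That all Id1KO libraries lay above all WT libraries was a condition of this ranking.

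Pim1, a kinase gene induced by STAT signalling, stood at 106, 99.3 and 103 CPM under WT and at 156, 159 and 156 under Id1KO. Its log2 fold change was 0.61 ± 0.031, with an adjusted p of 2.86e-11, and the libraries did not overlap. Bcl3, of the NF-kB inhibitor family, rose from 3.89, 3.40 and 2.97 CPM to 5.38, 5.62 and 5.83 (0.71 ± 0.15, adjusted p 0.00235). Of 34 JAK-STAT and SOCS genes tested, 9 rose and 4 fell, with a median of 0.01 against -0.01 over all genes tested. With Id1KO replicate 1 left out, 4 rose and 2 fell.

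The promoters of these genes were searched for TTCNNNGAA, the spaced palindrome to which STAT dimers bind, which reads the same on both strands. The 250 bases before the Socs3 start hold 1 match, which begins 154 bases before the start, and no match was found in that window of Bcl3 or in either promoter of Pim1. The Socs3 stretch is shown because Socs3 rose most among these genes, with the match in capitals. The RefSeq start used here lies within the gene span given above, which reaches to a transcript that begins further upstream. The stretch is on GRCm38, minus strand, chr11:117969367-117969616, from RefSeq.
Socs3 promoter: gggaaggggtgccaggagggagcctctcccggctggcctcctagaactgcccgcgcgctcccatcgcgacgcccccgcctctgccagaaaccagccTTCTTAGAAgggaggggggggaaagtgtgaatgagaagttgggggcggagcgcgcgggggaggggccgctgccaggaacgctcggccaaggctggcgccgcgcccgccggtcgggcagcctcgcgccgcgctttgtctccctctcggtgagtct
Of all 32851 promoters in the RefSeq table, 7.02% hold such a match. The share was 7.91% of 999 promoters of genes called higher, 6.14% of 1075 of genes called lower and 5.74% of 10477 of genes tested and not called. Of the 14346 genes tested, 9888 matched the table by symbol.

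Because Id1 acts on proteins that bind E-boxes, CANNTG was searched in the same windows, also a palindrome. It was present in 66.2% of all promoters, in 52.2% of those of genes called higher, 58.4% of those of genes called lower and 57.9% of those not called. The variant CAGCTG, contained in the first motif, was present in 11.5%, 10.7% and 11.7% of the last 3 groups and in 13% of all promoters. The Pf4 window is printed as an example of a strongly raised gene with both forms, with CANNTG matches in capitals (GRCm38, plus strand, chr5:90772185-90772434, RefSeq).
Pf4 promoter: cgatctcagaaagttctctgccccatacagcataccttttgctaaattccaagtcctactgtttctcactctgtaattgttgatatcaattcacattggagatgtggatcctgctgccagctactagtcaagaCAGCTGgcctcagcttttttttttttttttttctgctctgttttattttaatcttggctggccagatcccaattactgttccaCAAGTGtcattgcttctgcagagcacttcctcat
A match says only that these letters occur in the window.

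A list of genes for Id proteins, helix-loop-helix factors and factors that work with these had 25 members tested. By the same test 6 rose and none fell. Besides Id1 they were Mycn, Myc, Max, Tal1 and Gata2, the last not a helix-loop-helix gene. Mycn, a relative of the growth regulator Myc, stood at 6.53, 6.81 and 6.86 CPM under WT and at 11.4, 11.7 and 12.9 under Id1KO (0.84 ± 0.088, adjusted p 1.61e-06). Its libraries did not overlap. The E-protein genes Tcf3 and Tcf12 had log2 fold changes of -0.08 and 0.03 (adjusted p 0.315 and 0.669), and Id2 one of 0.04 (0.824). The rise of Myc by 0.10 was lost without Id1KO replicate 2 (adjusted p 0.171) and in 3 other fits that left out a library.

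Megakaryocyte and platelet genes were the lineage list with the most members higher in Id1KO. Of 27 tested, 13 rose and 1 fell, a median log2 fold change of 0.24, and the summed level ran from 994 to 1012 CPM under WT and from 1148 to 1169 under Id1KO. Pf4, a platelet chemokine gene (chromosome 5, 90772435 to 90773383), stood at 30.2, 28.0 and 29.7 CPM under WT and at 51.9, 50.7 and 52.0 under Id1KO (0.82 ± 0.056, adjusted p 3.32e-09). The clotting factor gene Vwf rose from 38.4, 38.4 and 34.9 CPM to 56.6, 58.6 and 54.6 (0.60 ± 0.057, adjusted p 3.43e-07). For both genes every Id1KO library was above every WT library. Trpc6, a calcium channel gene, F2rl2, a thrombin receptor gene, and Rab27b, of platelet granule release, rose by 0.82, 0.73 and 0.61, and the integrin gene Itga2b by 0.40 ± 0.046. In such bulk samples more cells of a type and more RNA per cell cannot be told apart.

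Of 23 genes of mast cells, basophils and eosinophils tested, 10 rose and 2 fell, with a median of 0.19. The summed level was 1399 to 1416 CPM under WT and 1556 to 1570 under Id1KO. The genes that fell were Hdc (-0.10) and Fcer1g (-0.26). Mast cell and basophil genes were mixed. Slc18a2 and Il1rl1 rose by 0.33 and 0.32, while Cpa3, Mcpt8 and Ms4a2 were not called (0.08, -0.04 and -0.03). The eosinophil granule gene Epx stood at 47.2, 47.8 and 44.1 CPM under WT and at 67.5, 71.3 and 67.2 under Id1KO (0.57 ± 0.044, adjusted p 1.76e-08). Prg2, the gene of the major basic protein, rose from 183, 191 and 186 CPM to 257, 254 and 249 (0.44 ± 0.028, adjusted p 1.31e-09). Neither overlapped between the labels. The eosinophil ribonuclease genes Ear6 and Ear1 rose by 0.80 and 0.91, and the receptor gene Il5ra by 1.04 ± 0.27 (adjusted p 0.0116), a call lost without WT replicate 2 (0.0569) and without Id1KO replicate 3. Ear1 is 96.4% identical to Ear2 over 717 bp, and their sum rose by 0.71.

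Of 38 genes of stem and multipotent cells, 7 rose and 2 fell (median 0.11). Ifitm1, a membrane protein gene, stood at 23.0, 20.8 and 22.1 CPM under WT and at 39.0, 43.7 and 39.6 under Id1KO (0.89 ± 0.056, adjusted p 8.44e-10). Prdm16, a regulator of stem cell maintenance, rose from 1.76, 2.37 and 2.54 CPM to 4.89, 5.05 and 4.07 (1.07 ± 0.16, adjusted p 0.000116). Both sets of libraries were apart. Cd34, a surface marker of progenitors, fell by 0.28 ± 0.025 on the log2 scale (adjusted p 1.10e-07). The stem list shares Vwf with the megakaryocyte list and Ifitm1 with the mast cell and interferon lists.

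Of 60 genes of G2 and M phase, 30 rose and none fell, with a median of 0.10. None of them passed the test against a 1.2-fold difference. Anln, needed for the cleavage furrow, stood at 85.2, 86.1 and 84.9 CPM under WT and at 104, 99.8 and 106 under Id1KO (0.28 ± 0.030, adjusted p 2.61e-06). The spindle genes Kif2c and Prc1 and the condensin gene Ncapg rose by 0.29, 0.26 and 0.25. Of 54 S phase genes 4 rose and 9 fell, with a median of -0.02, and 1 to 5 fell in fits that left out 1 library, 1 of them without Id1KO replicate 1. Ccne2, a cyclin of S phase entry, rose by 0.40 ± 0.057, and the inhibitor gene Cdkn1b by 0.30 ± 0.038 (adjusted p 6.39e-05 and 2.05e-05). Cdk6, a kinase of G1, fell by 0.17 on the log2 scale (adjusted p 0.000945).

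Chaperone genes rose in 10 of 31 cases and fell in 1 (median 0.08). Hspa1b stood at 17.3, 17.0 and 18.6 CPM under WT and at 29.2, 31.3 and 27.3 under Id1KO, and Hspa1a at 12.2, 12.9 and 12.3 against 19.4, 18.3 and 18.8. The WT and Id1KO libraries did not overlap for either. These are copies, 99.2% identical over 2201 bp, and their sum rose by 0.68 on the log2 scale. Dnajb9, a chaperone of the secretory pathway, rose by 0.46 ± 0.056 (adjusted p 1.16e-05).

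Among immediate early genes Klf2 and Fosb were lower. Klf2 (chromosome 8, 72319033 to 72321656) encodes a zinc-finger factor of quiescence and trafficking, and stood at 37.3, 33.9 and 35.0 CPM under WT and at 14.6, 16.2 and 14.6 under Id1KO (-1.22 ± 0.066, adjusted p 7.71e-11). The AP-1 gene Fosb stood at 253, 239 and 247 CPM under WT and at 152, 154 and 142 under Id1KO (-0.72 ± 0.041, adjusted p 1.71e-10). Neither overlapped. Of 30 immediate early and AP-1 genes, 12 fell and 2 rose, with a median of -0.08. Jun and Fos fell by 0.37 and 0.34 on the log2 scale, and Ier3 rose by 0.49 ± 0.085. Nr4a1 fell by 0.74 (adjusted p 0.00913), a call lost without Id1KO replicate 1 (0.0625).

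**Figure D1:**
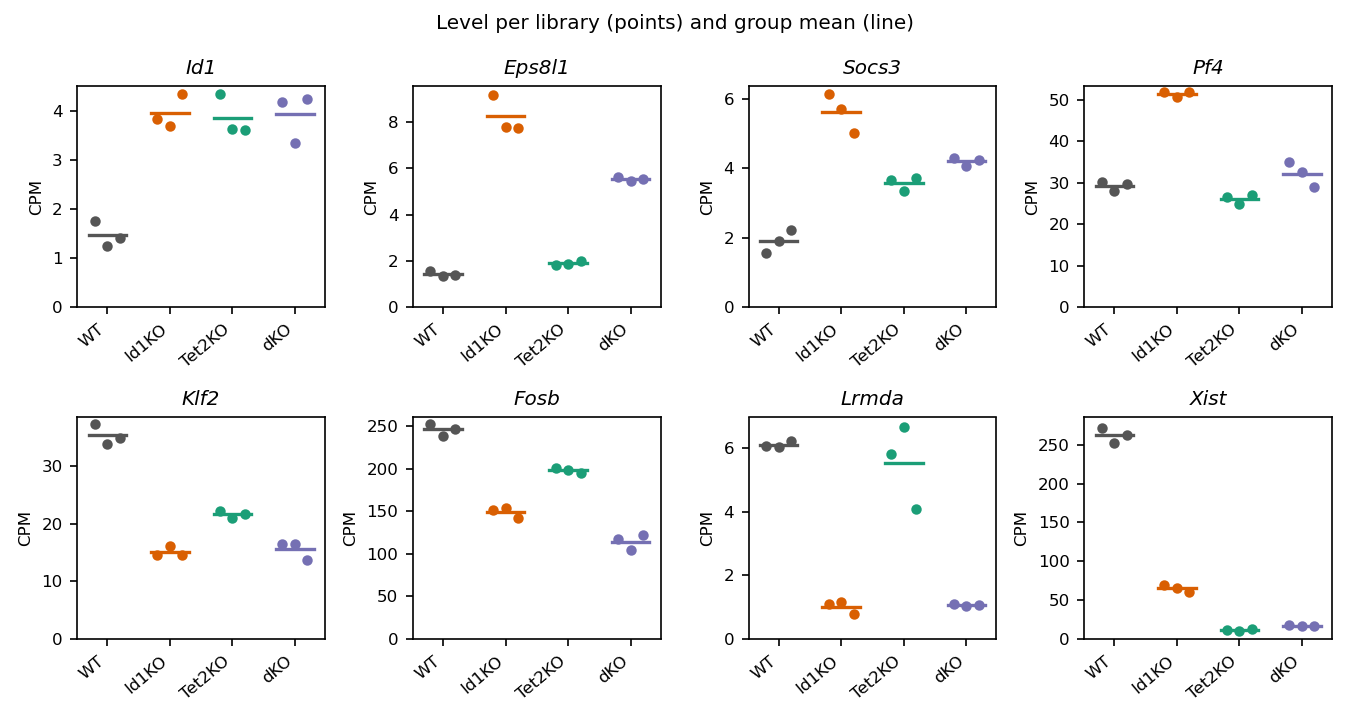
CPM (vertical axis, from 0) of 8 genes in each of the 12 libraries, as points grouped by label, with a line at the mean of the 3 libraries. The Id1KO libraries stand apart from the WT libraries in every panel, at 7.76 to 9.17 against 1.34 to 1.56 CPM for Eps8l1 and at 14.6 to 16.2 against 33.9 to 37.3 CPM for Klf2.

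Of 41 monocyte and dendritic cell genes tested, 17 fell and 2 rose, with a median of -0.13, and the summed level was 3669 to 3764 CPM under WT and 3319 to 3373 under Id1KO. Irf8, the factor that directs progenitors to these lineages, stood at 341, 335 and 345 CPM under WT and at 268, 270 and 259 under Id1KO (-0.36 ± 0.028, adjusted p 2.27e-08). Its libraries did not overlap. The chemokine receptor gene Cx3cr1 and the factor gene Irf5 fell by 0.39 and 0.36 on the log2 scale. Adgre1, of macrophages, fell by 0.46 (adjusted p 0.0134), a call lost without Id1KO replicate 2 (0.0829) and without WT replicate 1.

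Nlrp3, the inflammasome sensor gene, stood at 15.6, 15.2 and 13.1 CPM under WT and at 6.75, 7.75 and 8.31 under Id1KO (-0.94 ± 0.094, adjusted p 7.50e-07). The 3 WT libraries were all higher. Of 32 neutrophil granule genes 6 fell and 3 rose (median -0.04). Those that rose were Lcn2 (0.57), Anxa1 (0.32) and Gfi1 (0.12). Mpo, the gene of the peroxidase of early granules, stood at 9917, 9889 and 9928 CPM under WT and at 8449, 8799 and 8035 under Id1KO (-0.23 ± 0.034, adjusted p 7.29e-05). Chil1, a chitinase-like granule gene, was at 5.13, 3.61 and 5.35 CPM under WT and at 0.824, 0.833 and 0.275 under Id1KO (-2.85 ± 0.30, adjusted p 1.75e-06).

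Lymphoid genes fell in 7 of 32 cases and rose in none (median -0.17). Dntt, the DNA polymerase of early lymphocytes, stood at 28.4, 32.5 and 29.5 CPM under WT and at 20.2, 18.4 and 18.6 under Id1KO (-0.66 ± 0.069, adjusted p 1.34e-06). Ighm, which gives a sterile transcript before antibody genes are joined, fell by 0.31 on the log2 scale (adjusted p 1.84e-06). Vpreb3, of B-cell precursors, fell by 1.28 (adjusted p 0.0137) at 1.24 CPM or less in every library, a call lost without Id1KO replicate 3 (0.0698) and without WT replicate 1.

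Genes of antigen presentation fell in 11 of 31 cases and rose in 2 (median -0.10; 5 fell without WT replicate 3), and interferon response genes fell in 8 of 47 and rose in 1 (median -0.14). Tap1, the peptide transporter gene, fell by 0.27 (adjusted p 7.30e-05) and Ifit2, an antiviral gene, by 0.27 (0.00508) on the log2 scale. The gene that rose in the interferon list was Ifitm1. With WT replicate 3 or Id1KO replicate 1 left out, 3 interferon genes fell, as with DESeq2, and without Id1KO replicate 2 4 fell.

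Adhesion and homing genes fell in 9 of 33 cases and rose in 3 (median -0.05). Cd93, a surface protein gene of early progenitors, stood at 481, 503 and 499 CPM under WT and at 387, 384 and 382 under Id1KO (-0.36 ± 0.026, adjusted p 6.06e-09). Selplg, the gene of the selectin ligand, fell by 0.29 on the log2 scale. Of 24 genes of BMP and TGF-beta signalling, inhibitors such as Smad6 and Smad7 included, none rose and 3 fell (12.5%, against 7.77% of all genes). These were Ltbp3, Tgif1 and Bmpr2, and only 1 gene fell without WT replicate 1 or Id1KO replicate 3. The receptor gene Bmpr2 fell by 0.24 ± 0.046 (adjusted p 0.00136). Red cell genes rose in 5 of 37 cases and fell in none (median 0.01, against -0.01 over all genes tested). The share higher was 13.5%, against 7.26% of all genes tested. The transferrin receptor gene Tfrc rose by 0.43 ± 0.032.

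Lists named for cells that the sort should lack were measured beside these, but not all members are specific to such cells. Of 13 genes of stroma, endothelium and bone that were tested, 2 rose and 4 fell. Their summed level was 575 to 584 CPM under WT and 537 to 560 under Id1KO. Igfbp4 (324 and 296 CPM on average under WT and Id1KO) and Pecam1 (110 and 90.7) held most of it. Col1a2 stood at 0.734 and 1.02 CPM. The sum is thus no measure of stromal cells. Of 17 macrophage genes, 3 rose and 1 fell, at 221 to 224 and 227 to 233 CPM, and no macrophage gene was higher by DESeq2 or without WT replicate 2 or Id1KO replicate 1. Vwf, Esam and Tek of the stroma list are also in the stem list. The part of such cells in the results was not tested.

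**Figure D2:**
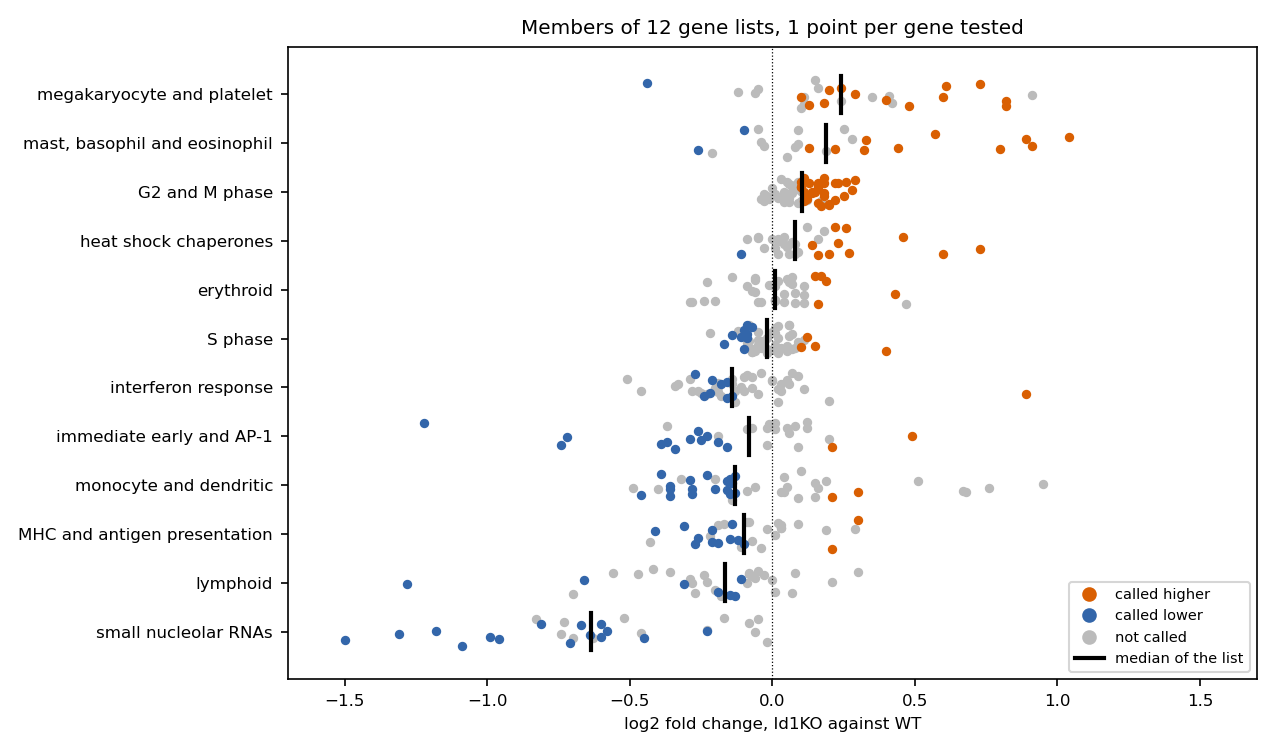
Log2 fold change in Id1KO against WT (horizontal axis) of every tested member of 12 gene lists, 1 point per gene, coloured by its call, with a bar at the list's median. Called megakaryocyte and G2 and M phase genes lie to the right of 0 with 1 exception, called small nucleolar RNAs lie to the left, and most points are within 0.5 of 0.

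Of the gene lists, small nucleolar RNAs had the lowest median. Of 28 small nucleolar and Cajal body RNAs tested, 15 fell and none rose, with a median of -0.63, and all 28 had negative log2 fold changes. These RNAs guide chemical modification of ribosomal and spliceosomal RNA. Snora73a stood at 274, 259 and 247 CPM under WT and at 156, 148 and 172 under Id1KO (-0.71 ± 0.048, adjusted p 2.26e-09), and its sum with Snora73b and the host gene Snhg3 fell by 0.62. Snora78 stood at 7.62, 5.93 and 5.57 CPM under WT and at 3.24, 3.02 and 3.58 under Id1KO (-0.96 ± 0.17, adjusted p 0.000605). Neither overlapped. Their sequences from the GENCODE transcripts are printed to show what kind of molecule fell, with the ACA box, 3 bases from the end, in capitals.
Snora73a: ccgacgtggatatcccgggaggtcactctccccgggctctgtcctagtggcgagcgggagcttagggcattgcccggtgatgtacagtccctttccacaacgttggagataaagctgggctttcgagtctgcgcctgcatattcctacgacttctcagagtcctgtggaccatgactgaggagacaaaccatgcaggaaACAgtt
Snora78: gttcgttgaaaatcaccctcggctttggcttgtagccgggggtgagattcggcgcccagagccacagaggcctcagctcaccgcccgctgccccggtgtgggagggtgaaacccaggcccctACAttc
Snora74a fell by 1.50 on the log2 scale, but another gene holds its whole 196 bases, and their sum fell by 0.46.

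The signal recognition particle RNAs Rn7s1 and Rn7s2 took 4.63%, 4.69% and 4.53% of all counts under WT and 2.59%, 2.73% and 2.50% under Id1KO. Rn7s1 fell by 0.92 ± 0.066 on the log2 scale (adjusted p 6.06e-09). Residual ribosomal RNA genes took 0.754% to 1.35% under WT and 0.863% to 0.980% under Id1KO, and mitochondrially encoded genes 1.71% to 2.27% and 1.85% to 1.96%. Among protein-coding genes, 308 of 2099 in the lowest of 5 groups by transcript GC content rose and 89 fell, while in the highest 120 of 2631 rose and 245 fell. The part of these library properties in the gene lists was not tested.

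The lowest log2 fold change among genes with an established name and at least 5 CPM was that of the histone gene Hist1h4m, at 459, 479 and 494 CPM under WT and 2.03, 1.98 and 0.660 under Id1KO (-8.25 ± 0.11, adjusted p 2.37e-21). It was at 653 ± 9.2 CPM under Tet2KO and 644 ± 55 under dKO. The transcript differs from that of Hist1h4n at 1 of 402 aligned bases, given as G36A from the start of Hist1h4m, so the counting may split their reads. Hist1h4n was not higher where Hist1h4m was low, at 680 CPM under WT and 618 under Id1KO on average. The stretch around that base, in capitals, is printed for both.
Hist1h4m: acagttttgtcttcGtcatgtctggtcgt
Hist1h4n: acagttttgtcttcAtcatgtctggtcgt
Summed over 7 similar histone H4 genes, the log2 ratio was -0.29. Reads of 3 more genes of the largest falls may be split in this way. Amd2 fell by 1.58 and its sum with Amd1 rose by 0.16, Ahcy fell by 0.91 and its sum with Gm4737 by 0.04, and Hist1h2br fell by 1.41 and its sum with Hist1h2bq by 0.99, all on the log2 scale.

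The same Id1 label could be followed in libraries that this comparison did not use, dKO against Tet2KO. There 3793 genes were called (26.4%), 1876 higher (13.1%) and 1917 lower (13.4%). Of the 2156 genes called in Id1KO against WT, 760 (35.3%) were called in the same direction there, 171 in the opposite direction and 1225 not at all. The difference between the contrasts was called for 2078 genes (14.5%).

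Most of the leading rises were smaller in dKO against Tet2KO. These genes were picked for large differences in Id1KO against WT, which also enter the difference between the contrasts. Smaller values in the other contrast can thus follow in part from the choice. For Socs3 the log2 fold change from Tet2KO to dKO was 0.23 ± 0.14 (adjusted p 0.236), and the difference from 1.57 was called (-1.34, adjusted p 0.000147). Mycn (0.04 there), the matrix protease inhibitor gene Timp3 (1.04 here and -0.07 there), Ear6 (-0.10), Prdm16 (0.22) and Ifitm1 (0.20) also differed between the contrasts, as did Id1 (0.03). Timp3 shares exon bases with Syn3 on the other strand. Megakaryocyte genes rose in 5 and fell in 5 of 27 cases in dKO against Tet2KO, and the difference between contrasts was called for 14. Mast, basophil and eosinophil genes rose in 2 and fell in 9 of 23, and Prg2 fell by 0.22 there against a rise of 0.44 here, with the difference called (-0.66, adjusted p 1.05e-09). Red cell genes rose in 32 of 37 cases there, and the difference was called for 31.

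Other genes were called in the same direction in both contrasts. Lrmda, a gene named for melanocyte differentiation (chromosome 14, 22019712 to 23056085), stood at 6.07, 6.03 and 6.21 CPM under WT and at 1.10, 1.14 and 0.770 under Id1KO (-2.59 ± 0.19, adjusted p 9.84e-09). It stood at 5.82, 6.67 and 4.09 CPM under Tet2KO and at 1.08, 1.02 and 1.06 under dKO (-2.38 ± 0.20). No library with the Id1 label overlapped one without it. Fosb fell by 0.79 there, Dntt by 0.82 and Cd34 by 0.32 on the log2 scale, while Banp, a chromatin protein gene, rose by 0.58 against 0.82 here. Of the 30 G2 and M phase genes that rose here, 25 rose there too, and of 17 monocyte and dendritic genes that fell here, 11 fell there. Eps8l1 rose in both, by 1.55 ± 0.14 there, with a difference of -0.97 (adjusted p 0.00288).

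**Figure D3:**
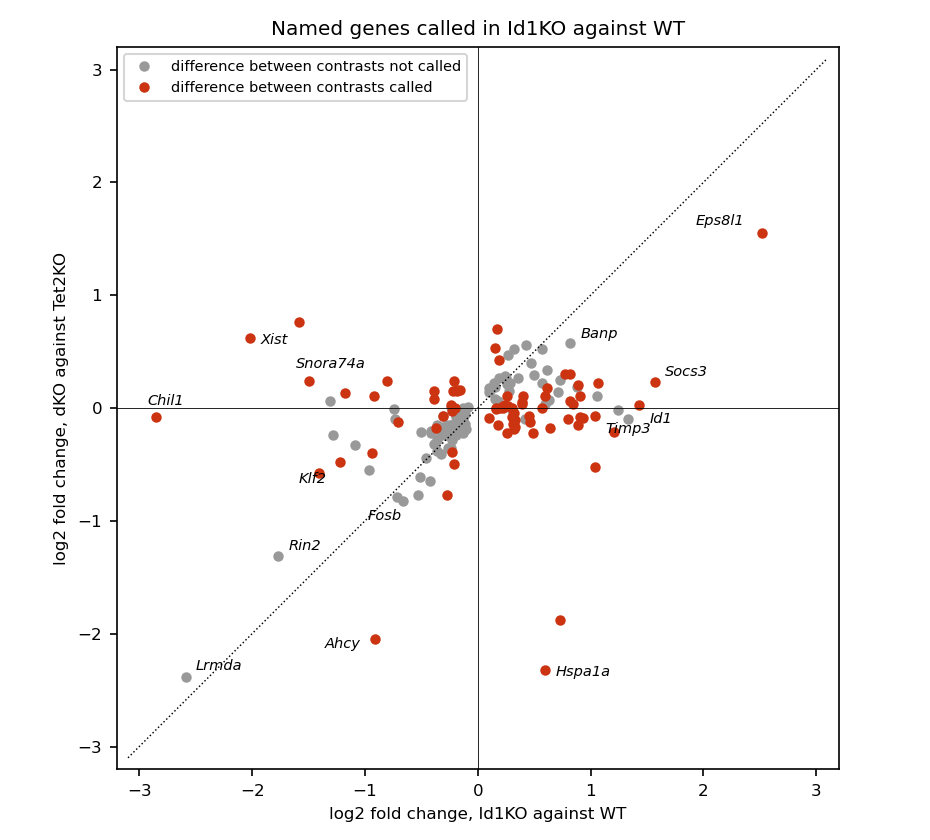
Log2 fold change in dKO against Tet2KO (vertical axis) against that in Id1KO against WT (horizontal axis) for 171 genes called in the latter that the naming rule selects, a larger set than those described in the text, with the line of equal values dotted and Hist1h4m outside the axes. Red points, 77 genes, are those whose difference between the contrasts was called, and Socs3, Timp3 and Id1 lie near 0 on the vertical axis while Lrmda, Rin2 and Fosb lie near the dotted line.

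Some genes near Id1 on chromosome 2 differed with the Id1 label in both contrasts. These and the next genes were chosen after their values were seen. The 10 Mb windows were not among those planned, so the shares in them are descriptive and not a test. Of 60 genes tested in the 10 Mb before Id1, 18 were called in Id1KO against WT and 13 (21.7%) were called in the same direction in both contrasts, 12 lower and 1 higher, against 5.30% of all genes tested. In the 10 Mb after Id1 the share was 7.07% of 99 genes, and on other chromosomes 5.27%. Gm26165, counted among the 12 lower genes, lies within the span of Snx5, another of them. Rin2, an activator of the endosomal GTPase Rab5, lies 7.06 Mb before Id1 at 145675215 to 145887616. It stood at 5.08, 5.36 and 5.57 CPM under WT and at 1.26, 1.67 and 1.76 under Id1KO (-1.77 ± 0.14, adjusted p 3.29e-08), and at 6.13, 6.37 and 6.52 under Tet2KO and 2.73, 2.33 and 2.60 under dKO. The 6 libraries with the Id1 label were all lower than the 6 without it.

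Genes called in both contrasts lie 8.82 to 8.14 Mb before Id1. Among them Sec23b, of vesicle coats, was higher, by 0.10 and 0.19, while Kat14 and Smim26 in the same stretch were not called in Id1KO against WT. Mgme1, a mitochondrial DNA exonuclease gene, stood at 28.3, 27.4 and 27.5 CPM under WT and at 16.9, 16.1 and 17.6 under Id1KO (-0.72 ± 0.055, adjusted p 1.53e-08), and fell by 0.50 in dKO against Tet2KO. Snx5, of endosomal sorting, fell by 0.50 and 0.40 in the contrasts without and with Tet2 loss, Dstn, of actin turnover, by 0.41 and 0.51, Rrbp1, a ribosome receptor gene, by 0.30 and 0.47, and Dtd1, of tRNA proofreading, by 0.35 and 0.35. Cd93 lies 4.30 Mb before Id1 and fell by 0.36 and 0.38. Zcchc3 and H13, at 0.32 and 0.07 Mb, fell by 0.51 and 0.16 here and by 0.61 and 0.46 there. Within 5 Mb of Id1 on either side, 8 of 118 genes rose and 13 fell in Id1KO against WT (17.8%). Between 5 and 20 Mb 15 of 139 rose and 21 fell (25.9%). The share called was 14.1% on the rest of chromosome 2 and 14.9% on other chromosomes, so that within 5 Mb was near the background.

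**Figure D4:**
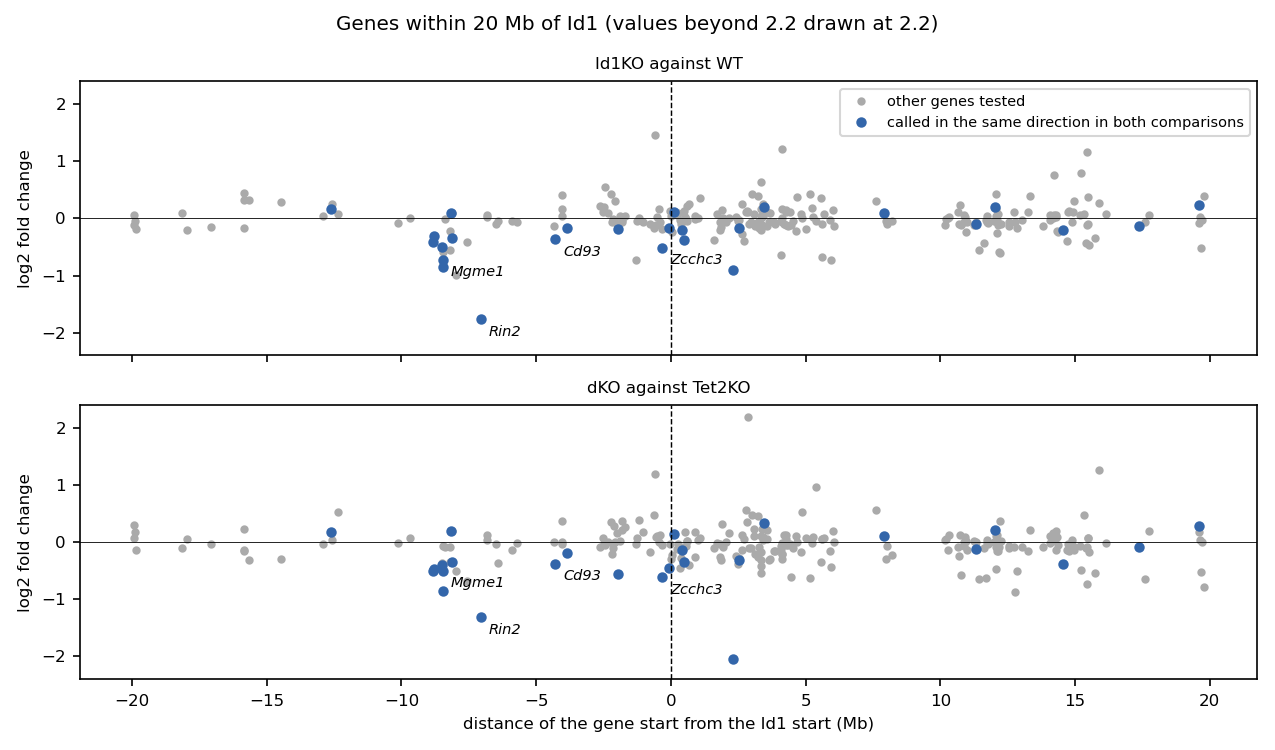
Log2 fold change (vertical axis) of genes tested within 20 Mb of Id1 against the distance of their start from that of Id1 in Mb (horizontal axis), above for Id1KO against WT and below for dKO against Tet2KO. Blue points are genes called in the same direction in both, and a group of them lies below 0 between 9 and 7 Mb before Id1, with Rin2 lowest in that group at -1.77 and -1.31. In the lower panel 1 gene beyond 2.2 is drawn at 2.2.

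On chromosome 14, Gm16867 and Gm27177 had no count in any library with the Id1 label. Gm16867 (69363504 to 69503362) stood at 9.18, 7.58 and 9.40 CPM under WT and 8.88, 6.73 and 5.55 under Tet2KO, and at 0 in all Id1KO and dKO libraries. With a floor of 3 counts over the group it was at least 161-fold lower in Id1KO than in WT and at least 115-fold lower in dKO than in Tet2KO. Gm27177 (69582164 to 69683286), 100% identical to it over 2846 bp, was at least 70.7-fold and 67.9-fold lower. The neighbours Entpd4 and Entpd4b, copies of each other, had a sum that was lower in Id1KO than in WT (log2 ratio -0.39). Mid1, on the X chromosome, stood at 4.35, 3.66 and 3.30 CPM under WT and at 0.329, 0.416 and 0.385 under Id1KO (-3.30 ± 0.23, adjusted p 4.70e-09), and fell by 2.46 in dKO against Tet2KO. Gm47283, a gene model annotated on the Y chromosome (90784738 to 90816464), fell by 3.16 and 4.79. Whether its reads come only from the Y chromosome was not tested, so it was not read as a sex marker. Gm16867, Gm27177, Mid1 and Gm47283, with Lrmda, Fosb and the 7SK RNA gene Rn7sk, were the 7 called when the libraries of each genotype were summed.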

How the data were processed

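Per the labels' protocols, RNA came from micro-scale columns, and libraries were of the stranded total RNA kind with ribosomal RNA removed. The table deposited by the authors holds RSEM-style estimated counts (expected counts) per gene, not normalized, with 5.06% of values not whole. STAR, RSEM and mm10 are named in the submitters' processing notes, and versions, roles and the strand setting are not given in the sources used here. All 55450 identifiers matched GENCODE M21.

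Counts were rounded, genes were kept by filterByExpr (minimum count 10), libraries were scaled by TMM, and edgeR's quasi-likelihood model was fitted to all 12 libraries, each genotype having its own mean. F-tests were used with Benjamini-Hochberg adjustment over 14346 genes and a threshold of 0.05. An exact permutation test of 3 against 3 cannot go below 0.1 and was not used. SE values come from the fit. The members and the 40 gene lists were chosen with earlier results of these data known. Named genes were Id1, Tet2, Xist, Y genes and sort markers, the 12 highest and 12 lowest called genes with at least 5 CPM, no overlap and an established name, up to 4 called members per list with the largest change and the one with the highest level, and up to 4 called genes within 5 Mb of Id1; not all are described. Irf8, Fos, Itga2b, Prg2, Epx, Cd34, Snora73a, Tal1, Tcf3, Tcf12, Id2, Rn7sk and the genes near Id1 (Sec23b, Kat14 and Smim26 included) or on chromosomes 14, X and Y shared by both contrasts were added after their values were seen. So were Hdc, Fcer1g, Slc18a2, Cpa3, Mcpt8, Ms4a2 and Gfi1. Exon bases of Xist, Timp3, Myom1, Prc1, Ncapg, Ccne2, Cdk6, Jun, Irf5, Tap1, Snx5, Mgme1, Gm16867, Gm27177, Entpd4 and Entpd4b overlap a gene on the other strand, whose reads cannot be told apart unless counting used strand. Copies were sought with blast 2.17.0 at 95% identity. Promoters are the 250 bases before starts in RefSeq (GRCm38.p6).

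The fit was tested on simulated data. Some sort markers are not reported here. Alternatives were other scalings and filters, DESeq2 1.42.0, a fit without the Tet2-null libraries, summed libraries, a test against a 1.2-fold difference (glmTreat), a block for the replicate number and fits that omitted 1 library. Software was edgeR 4.0.16 and limma 3.58.1 in R 4.3.3, with matplotlib 3.10.9 in Python 3.11.15.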

Additional observations from a re-analysis of the deposited data

Results flagged for a closer look

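Among the named genes, 105 were examined for the difference between dKO against Tet2KO and Id1KO against WT. It passed the test (edgeR's quasi-likelihood, adjusted p under 0.05) for 56 of them, and for 14.5% of all genes tested. Many named genes were picked for large values in Id1KO against WT, which enter this difference. Their higher share can thus follow in part from the choice. The values that follow are dKO against Tet2KO minus Id1KO against WT, on the log2 scale, so a negative value means that the change with the Id1 label was lower with Tet2 lost: a smaller rise, a rise that turned into a fall, or a larger fall. In dKO against Tet2KO, Hspa1a, Hspa1b, Prg2 and Itga2b, which rose in Id1KO against WT, fell. Among genes that rose in Id1KO, the cytokine feedback gene Socs3 had -1.34, Id1 -1.40, Timp3 -1.11, Eps8l1 -0.97, Prdm16 -0.85, Myom1 -0.80, Mycn -0.79, Ifitm1 -0.70, Ehd3 -0.47, Gata2 -0.20, Max -0.17 and Pim1 -0.44. Platelet genes had -0.76 (Trpc6), -0.52 (Pf4), -0.49 (Vwf), -0.54 (Itga2b) and -0.20 (Rap1b). Eosinophil genes had -0.90 (Ear6), -0.99 (Ear1), -1.56 (Il5ra), -0.66 (Prg2) and -0.61 (Epx). The stress and signalling genes Hspa1a, Hspa1b, Dnajb9, Ier3, Tnfaip3, Il4ra and Mdm2 had -2.92, -2.61, -0.58, -0.71, -0.36, -0.30 and -0.21, and the cell cycle genes Cdkn1b, Ccne2 and Prc1 -0.38, -0.29 and -0.15.

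Among genes that fell, positive values were those of Chil1 (2.76), Klf2 (0.75), Nlrp3 (0.54), Cx3cr1 (0.47), Irf8 (0.37), Ighm (0.24), Kmt2d (0.20) and Jun (0.19), and of the RNAs and histones Hist1h4m (8.23), Snora74a (1.75), Rn7s1 (1.03), Hist1h2br (0.84) and Snora73a (0.41). Amd2 had 2.34. Negative values, a larger fall in dKO against Tet2KO, were those of Ahcy (-1.14), H13 (-0.30), Rrbp1 (-0.17), Mpo (-0.16) and Gm47283 (-1.63). The sex-linked genes Xist, Ddx3y, Uty and Kdm5d had 2.63, -1.03, -0.57 and -0.52, and the sort marker Itgam, not called in Id1KO against WT, -0.38.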

How the results depend on the processing

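Counts of called genes stayed within 1.5 times of 2156 under RLE and upper quartile scaling, other filters and a fit of only the 6 libraries (2134 to 2376). DESeq2 called 1418 genes, 700 of them lower, and 1350 for the difference between contrasts. The test against a 1.2-fold difference called 140, 54 higher and 86 lower. With libraries summed per genotype it was 7 genes, 0 higher and 7 lower, in edgeR's quasi-likelihood test with 1 residual degree of freedom. That fit took the Id1 label across both Tet2 backgrounds, so it measured another quantity than Id1KO against WT. Hspa1b and Hspa1a had -0.57 and -0.85 in it, and both fell in dKO against Tet2KO. Fits without 1 library called 1512 to 1787 genes (1512 without Id1KO replicate 1), 758 to 906 higher and 746 to 881 lower. Of 104 called genes among those named here, all were called under the other scalings, the other filters and the fit of only the 6 libraries. DESeq2 lost 3 of 103, fits without 1 library 3 to 7, and the 1.2-fold test 51. With a replicate block 1952 genes were called, 955 higher and 997 lower, and 1871 for the difference between contrasts, and H2-Eb1 and Myc were lost. In their deviations from the label mean, WT and Id1KO libraries of the same number correlated at 0.131, -0.106 and -0.084 across 9171 genes. Other pairs correlated at -0.096 to 0.193. With so few libraries, and only these labels compared, this check cannot exclude that the numbers pair libraries. Where a call was lost, the cause was not tested. At this depth genes of a few CPM rest on few counts, and Id1 on 24 to 79 per library.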

Other observations

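Other gene groups were measured in Id1KO against WT with the same test. Of 30 cytokine receptor genes, 3 rose and 9 fell, with a median log2 fold change of -0.05, and 5 fell without Id1KO replicate 1. Il4ra, of the interleukin 4 receptor, stood at 52.5, 52.1 and 53.3 CPM under WT and at 65.8, 65.1 and 63.1 under Id1KO (0.30 ± 0.042, adjusted p 6.37e-05). Il1rl1, the interleukin 33 receptor gene of mast cells, rose by 0.32 ± 0.047 (adjusted p 8.97e-05). Il1r1, of the interleukin 1 receptor, fell by 0.39 on the log2 scale (adjusted p 0.0145), a call lost without WT replicate 3 (0.0978) and without Id1KO replicate 1. Among 34 genes of NF-kB and inflammation 4 rose and 4 fell (11.8% each, against 7.26% and 7.77% of all genes tested). The feedback inhibitor gene Tnfaip3 rose by 0.39 ± 0.05 (adjusted p 1.54e-05).

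Of 37 other genes that recur as drivers of clonal hematopoiesis, 2 rose and 11 fell, with a median of -0.03. Kmt2d, a histone methyltransferase gene, stood at 219, 198 and 196 CPM under WT and at 175, 182 and 166 under Id1KO (-0.23 ± 0.044, adjusted p 0.00123). Kdm6a, a histone demethylase gene, and the corepressor gene Bcor fell by 0.19 and 0.19 on the log2 scale, and both lie on the X chromosome. Of 38 genes of p53 and its targets, 6 rose and 2 fell (median 0.10). These were 15.8% and 5.26%, against 7.26% and 7.77% of all genes tested. Mdm2, the inhibitor of p53, rose by 0.24 ± 0.049 (adjusted p 0.00199), and Gtse1, of G2 and S phase, by 0.36 ± 0.059 (0.000286).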
